A study of Mus musculus with 6 samples.

Results

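The genes of cholesterol and fatty acid synthesis were followed in whole pancreas of mice without Rkip-1 (Raf kinase inhibitor 1, encoded by Pebp1) and of wild-type mice. The set held 33 genes of the 18193 named on the array, 19 of the sterol branch and 14 of the fatty acid branch. It was made of all 80 probe sets whose platform annotation names 1 gene and that gene is in the list, so all 33 genes were measured. The Rkip-1 KO and WT groups had 3 biological replicates each, 1 Affymetrix array per replicate, from mice aged 8 weeks of 1 shared colony on a C57BL/6 background. The labels give neither the number of mice behind an array, the sex, nor the part of the gene that was removed. The title of the series names the proliferation of pancreatic beta cells as its subject, whereas the tissue measured is the whole organ.

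Cholesterol is built from acetyl-CoA through mevalonate, the isoprenoids and squalene, and fatty acids are built from the same acetyl-CoA by carboxylation and repeated condensation. Both routes are governed by SREBP transcription factors, which leave the endoplasmic reticulum with Scap and are held back there by Insig proteins when sterols are plentiful. SREBP-2 (Srebf2) is best known for the sterol genes and SREBP-1 (Srebf1) for the fatty acid genes, the latter also under insulin and liver X receptors. Acinar cells need membrane lipid for their secretory apparatus, and fat cells, which border the pancreas in the mesentery, are rich in the enzymes of fatty acid synthesis.

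Fads2, the fatty acid delta-6 desaturase, rose in KO and was the single gene of the 33 with a probe set past the threshold. Its brightest probe set did not pass, and most fits with 1 array left out lost the call. At the brightest probe set of each gene, the 19 sterol genes differed little between genotypes, by -0.22 to 0.28 on the log2 scale. Over all their probe sets the range was -0.64 (Sc5d) to 0.36 (Srebf2), and none passed. The fatty acid genes were mostly lower in KO, 11 of 14, but 10 of the 14 had their lowest value in 1 array, KO replicate 1, where most fat cell, endocrine, acinar and stellate cell markers were also lowest. Srebf1 and Scd2 were lower in all 3 KO arrays than in any WT array without passing the threshold.

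Fads2 was higher in KO and passed at its dimmer probe sets but not at its brightest. Srebf1, with 1 probe set, was lower without passing, and the sterol genes Hmgcs1 and Insig1 differed little. The promoters of these 4 genes are shown. Each is the 250 bases before a transcription start, 5′ to 3′ on the gene's strand, from RefSeq on GRCm38.p6. They lie at chr19:10101504-10101753 (minus strand) for Fads2, chr11:60210472-60210721 (minus strand) for Srebf1, chr13:119690101-119690350 (plus strand) for Hmgcs1 and chr5:28071162-28071411 (plus strand) for Insig1. RefSeq lists 3 starts for Srebf1, of which the one with the most motif matches is printed. Capitals mark matches, on either strand, to the sterol regulatory element TCACNCCAC, the E-box CACGTG, the NF-Y box CCAAT, the GC box GGGCGG or the direct repeat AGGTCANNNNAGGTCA of liver X receptors.
Fads2: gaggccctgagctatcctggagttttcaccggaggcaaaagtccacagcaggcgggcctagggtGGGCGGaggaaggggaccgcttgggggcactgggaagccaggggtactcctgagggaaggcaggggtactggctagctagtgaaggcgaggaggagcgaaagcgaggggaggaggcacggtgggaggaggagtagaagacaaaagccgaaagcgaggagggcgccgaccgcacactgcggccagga
Srebf1: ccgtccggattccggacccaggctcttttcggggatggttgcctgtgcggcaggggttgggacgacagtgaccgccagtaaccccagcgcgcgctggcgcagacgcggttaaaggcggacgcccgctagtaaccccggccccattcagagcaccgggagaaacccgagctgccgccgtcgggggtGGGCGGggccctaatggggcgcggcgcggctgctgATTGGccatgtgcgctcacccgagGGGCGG
Hmgcs1: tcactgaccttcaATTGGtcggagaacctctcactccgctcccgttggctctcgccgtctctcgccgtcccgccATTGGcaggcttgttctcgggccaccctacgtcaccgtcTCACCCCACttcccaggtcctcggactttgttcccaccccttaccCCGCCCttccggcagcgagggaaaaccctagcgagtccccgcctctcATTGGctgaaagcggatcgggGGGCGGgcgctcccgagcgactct
Insig1: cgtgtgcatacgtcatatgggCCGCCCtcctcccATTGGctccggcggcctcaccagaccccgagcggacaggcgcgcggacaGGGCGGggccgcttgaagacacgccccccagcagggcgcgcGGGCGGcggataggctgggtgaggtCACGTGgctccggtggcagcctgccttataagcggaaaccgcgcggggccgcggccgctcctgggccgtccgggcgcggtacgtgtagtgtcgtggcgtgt
Of the 33 genes, 26 had an entry, with 35 windows in all, and Scd1, Scd2, Fads1, Fdft1, Fdps, Stard4 and Sqle are named only. The NF-Y box was found in 22 of the 35 windows (62.9%), against 33.8% of all 32851 windows of the same length. The GC box was also found in 22 of them (62.9%), against 32.7% of all windows, and the E-box in 6 (17.1%), against 6.02%. The sterol regulatory element was found in 1 member window, that of Hmgcs1, and in 1.05% of all windows. The direct repeat was found in 0 member windows and in 0.0152% of all. Only exact matches to the stated letters were counted, so sites that vary from them were missed. A window without a match may therefore still hold a sterol regulatory element or a liver X receptor site. Matches of different motifs did not overlap in any member window. The Fads2 window held a GC box alone, and the Hmgcs1 window held 1 sterol regulatory element, 3 NF-Y boxes and 2 GC boxes. Several windows belong to 1 gene, so these shares describe windows and not independent genes, and a match is not evidence of binding.

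Values are log2 levels as deposited after RMA, in which a shared change of most genes cannot be seen. Array medians lay between 2.97 and 3.02 and upper quartiles between 4.52 and 4.56. A probe set near 3 is therefore close to the dim majority, and a difference that starts from there may be misjudged in size. By the brightest probe set, 31 of the 33 genes averaged above the upper quartile of all values (4.54), and Pmvk and Mvd did not. The label check held, since Pebp1 measured 6.03 ± 0.41 in KO and 9.88 ± 0.12 in WT (mean ± SD, n = 3 each). Of the pancreas markers, the acinar enzyme gene Cpa1 lay between 14.35 and 14.39 and the insulin gene Ins2 between 12.53 and 12.70, while the hepatocyte marker Alb lay between 3.74 and 4.51. Xist, high in females, was high in KO replicates 2 and 3 and WT replicate 3 (9.09 to 9.79) and low in the other arrays (at most 4.44), an unequal spread over the genotypes.

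Across the whole array 44 of 45037 probe sets passed at an adjusted p under 0.05, a background of 0.0977%. Among the 80 member probe sets 2 passed, both of Fads2 and both higher in KO, in a background of 0.0733% for that direction. By the brightest probe set per gene, 24 of 18193 genes passed (0.132%), and 0 of the 33 did so by limma. At an unadjusted p under 0.05 there were 9 of the 80 probe sets (background 8.68%) and 3 of the 33 genes (background 10.1%). These 3 were Fads2, higher (4.55% of all genes), and Srebf1 and Scd2, lower (5.58%). The groups did not overlap in 5 of the 33, in a background of 14.4%. KO was above in Fads2 and Idi1 (6.87% of all genes) and below in Srebf1, Scd2 and Mvk (7.56%). These shares are near the background. KO was below WT in 22 of the 33, against 50.2% of all genes.

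**Figure D1:**
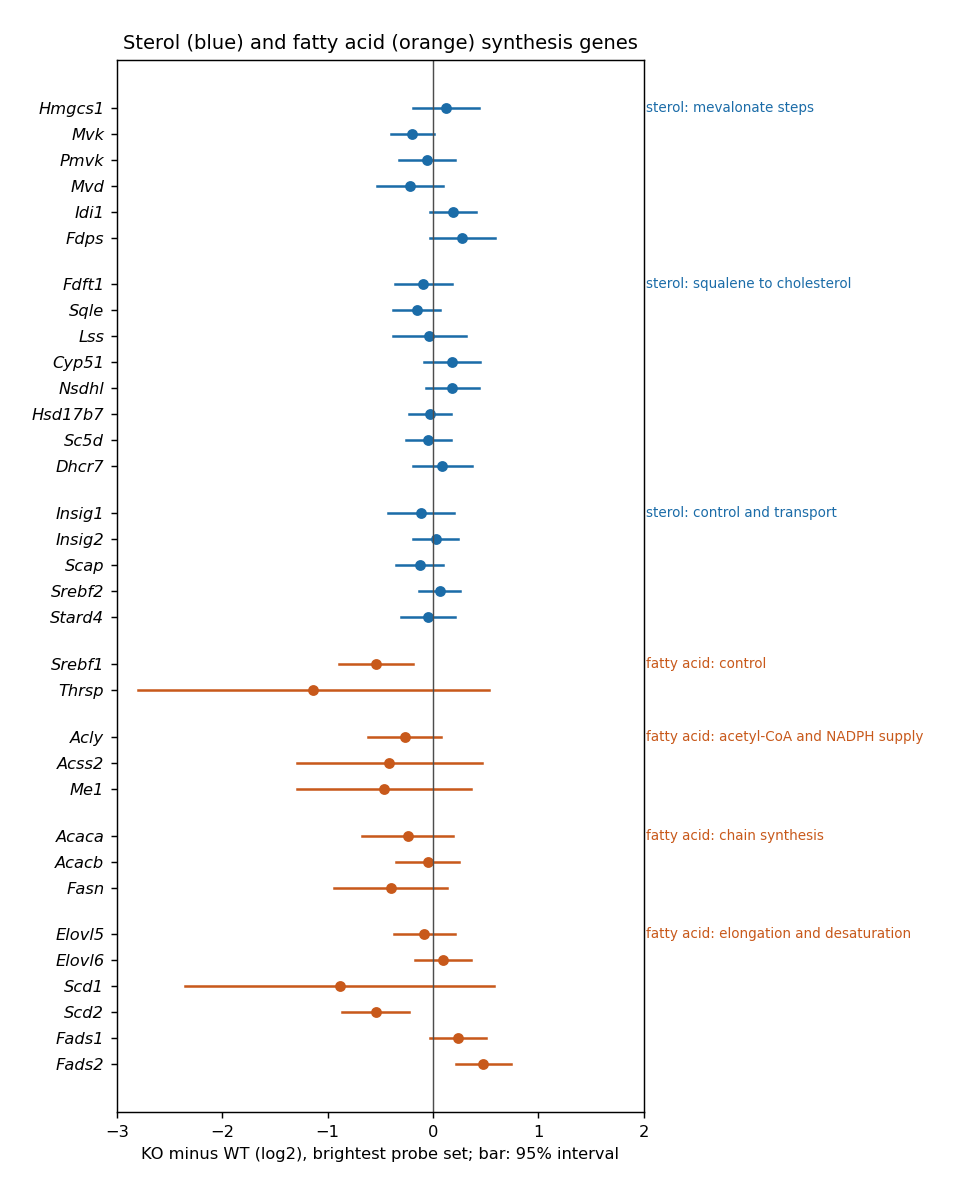
KO minus WT difference on the log2 scale (x axis) at the brightest probe set of each of the 33 genes (y axis), with 95% intervals from the moderated standard error. Sterol genes, in blue, lie between -0.22 and 0.28, and fatty acid genes, in orange, between -1.13 (Thrsp) and 0.48 (Fads2), with the widest intervals for Thrsp and Scd1.

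In the sterol branch 11 of 19 genes were lower and 8 higher in KO, with a median of -0.03 against a median of 0.00 for all genes (-0.0006 unrounded). By limma 0 of the 19 passed, and 0 had an unadjusted p under 0.05. The 95% intervals of the 19 genes together ran from -0.53 to 0.59 on the log2 scale. Values inside a gene's own interval were not excluded by these 6 arrays. Only 2 of the 19 were lowest in KO replicate 1.

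The mevalonate steps were split evenly, 3 of 6 lower and 3 higher. Hmgcs1, which condenses acetyl-CoA into HMG-CoA, measured 7.66, 7.66 and 8.10 in KO replicates 1, 2 and 3 and 7.49, 7.77 and 7.78 in WT replicates 1, 2 and 3. The groups overlapped and the highest value was KO replicate 3. The difference was 0.13 ± 0.14 (SE, adjusted p of 0.852 by limma), and it was -0.02 without KO replicate 3.

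Idi1, the isomerase that makes the reactive isoprenoid unit, measured 6.83, 6.72 and 6.96 in KO and 6.70, 6.54 and 6.69 in WT. Every KO value lay above every WT value, by a narrow margin, for a difference of 0.19 ± 0.10 (SE, adjusted p of 0.626). Mvk, mevalonate kinase, measured 4.81, 4.75 and 4.64 in KO and 4.96, 4.97 and 4.85 in WT. Here every KO value lay below every WT value, for a difference of -0.19 ± 0.09 (adjusted p of 0.596). A second, dimmer Mvk probe set went the other way, at 0.17. Fdps, which makes farnesyl diphosphate, differed by 0.28 ± 0.14, the largest sterol difference, and the groups touched, with KO replicate 3 at 7.52 and WT replicate 1 at 7.53. It was 0.14 without KO replicate 1 and -0.04 at a dimmer probe set. Mvd and Pmvk, which decarboxylate and phosphorylate mevalonate intermediates, differed by -0.22 and -0.06.

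From squalene to cholesterol 5 of 8 genes were lower and 3 higher, with differences of -0.15 to 0.18. Sqle, squalene epoxidase and a rate-limiting enzyme of the branch, measured 6.21, 5.94 and 6.12 in KO and 6.24, 6.17 and 6.33 in WT. Its groups overlapped, KO replicate 2 was lowest, and the difference was -0.15 ± 0.10 (adjusted p of 0.718). Fdft1, squalene synthase, differed by -0.09 and Lss, which closes the sterol rings, by -0.03. Cyp51, the lanosterol demethylase, and Nsdhl, which acts after it, both differed by 0.18. Dhcr7, which completes cholesterol, differed by 0.09, and Hsd17b7 and Sc5d by -0.02 and -0.04. A dimmer Sc5d probe set differed by -0.64 (adjusted p of 0.308), with 4.29 in KO replicate 1, 4.85 in KO replicate 2 and 5.30 to 5.44 in WT. There every KO value lay below every WT value, so the probe sets of this sterol desaturase disagreed in size. Another Sc5d probe set, below the array medians, differed by 0.08. Dimmer probe sets also differed in sign for Fdft1 (0.06 to 0.16), Lss (0.11), Cyp51 (-0.10) and Hsd17b7 (0.03 and 0.06).

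The regulators of the branch stayed close too. Insig1, which retains Scap and the SREBPs and is itself a sensitive SREBP target, measured 8.44, 8.52 and 8.98 in KO and 8.87, 8.68 and 8.73 in WT. The KO arrays spread on both sides of the WT arrays, and the difference was -0.11 ± 0.14 (95% interval -0.43 to 0.20). Srebf2 measured 4.68, 4.61 and 4.63 in KO and 4.50, 4.57 and 4.66 in WT. These groups overlapped, with a difference of 0.06 ± 0.09 (95% interval -0.13 to 0.26), and a dimmer Srebf2 probe set differed by 0.36 (unadjusted p of 0.0366, adjusted p of 0.537). Insig2, Scap and the sterol carrier Stard4 differed by 0.03, -0.12 and -0.04. Dimmer probe sets of Scap and Stard4 had the other sign, at 0.0043 and 0.04.

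In the fatty acid branch 11 of 14 genes were lower in KO, with a median of -0.34. Without KO replicate 1 the median was -0.05, and 8 of the 14 were lower. Without WT replicate 2, the array with the highest fat cell markers, it was -0.16. Over the 14 genes, the mean deviation from the WT mean was -0.86 in KO replicate 1, -0.07 in KO replicate 2 and 0.02 in KO replicate 3. The WT arrays deviated by -0.26, 0.24 and 0.02, so KO replicate 1 stood apart, and the other KO arrays lay within the WT range. KO replicate 1 was lowest of the 6 arrays in 71.4% of these genes and in 17.2% of all genes.

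By the mean, fat cell markers were likewise lowest in KO replicate 1, then in WT replicate 1, and highest in WT replicate 2. By the median deviation from the WT mean, WT replicate 1 was lowest (-0.25) and KO replicate 1 next (-0.19). The mean thus leaned on the markers with the largest drops, Car3 and Adipoq. Of 15 listed markers, 13 were measured and 9 of them were lowest in KO replicate 1. That array was also lowest in 6 of 7 endocrine, 5 of 8 acinar, 4 of 6 stellate and fibroblast, 2 of 4 duct, 2 of 5 lymphoid and myeloid, 0 of 3 endothelial and 1 of 7 hepatocyte markers. The mean deviation of KO replicate 1 from the WT mean was -1.19 for the fat cell markers, -0.14 for the endocrine and -0.16 for the acinar markers. The mean log2 level of the 13 fat cell markers was 4.12, 5.29 and 5.24 in KO and 4.98, 5.58 and 5.37 in WT, and their summed linear intensity 958 to 2531 in KO and 1881 to 4147 in WT. Between the genotypes, 9 of these 13 markers were lower in KO (50.2% of all genes) and 4 higher, with a median difference of -0.08. The 4 higher were Slc2a4 (0.21), Lipe (0.10), Cidec (0.04) and Pparg (0.02). Adipoq, the fat cell hormone adiponectin, measured 2.26 in KO replicate 1, below the array medians, against 5.12 to 6.99 elsewhere. Car3, a carbonic anhydrase abundant in fat and muscle, measured 2.51 there against 9.19 to 10.86. Fabp4, a fatty acid carrier of fat cells and endothelium, measured 9.03 there against 9.42 to 10.33. Lep, Ucp1 and Cidec were below the array medians in all arrays. The part of these markers in the fatty acid results was not tested, and in RNA of a whole organ fewer cells of a type and less RNA per cell cannot be told apart. Of the stellate cell and fibroblast genes 6 of 6 were lower in KO (50.2% of all genes), by -0.02 to -0.61. By limma 0 passed, with a smallest adjusted p of 0.27 for Col1a1. At an unadjusted p under 0.05, 3 of them were lower (5.58% of all genes). The mean deviation of the 6 genes from the WT mean was -0.56, -0.28 and -0.19 in KO and 0.01, 0.14 and -0.15 in WT.

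**Figure D2:**
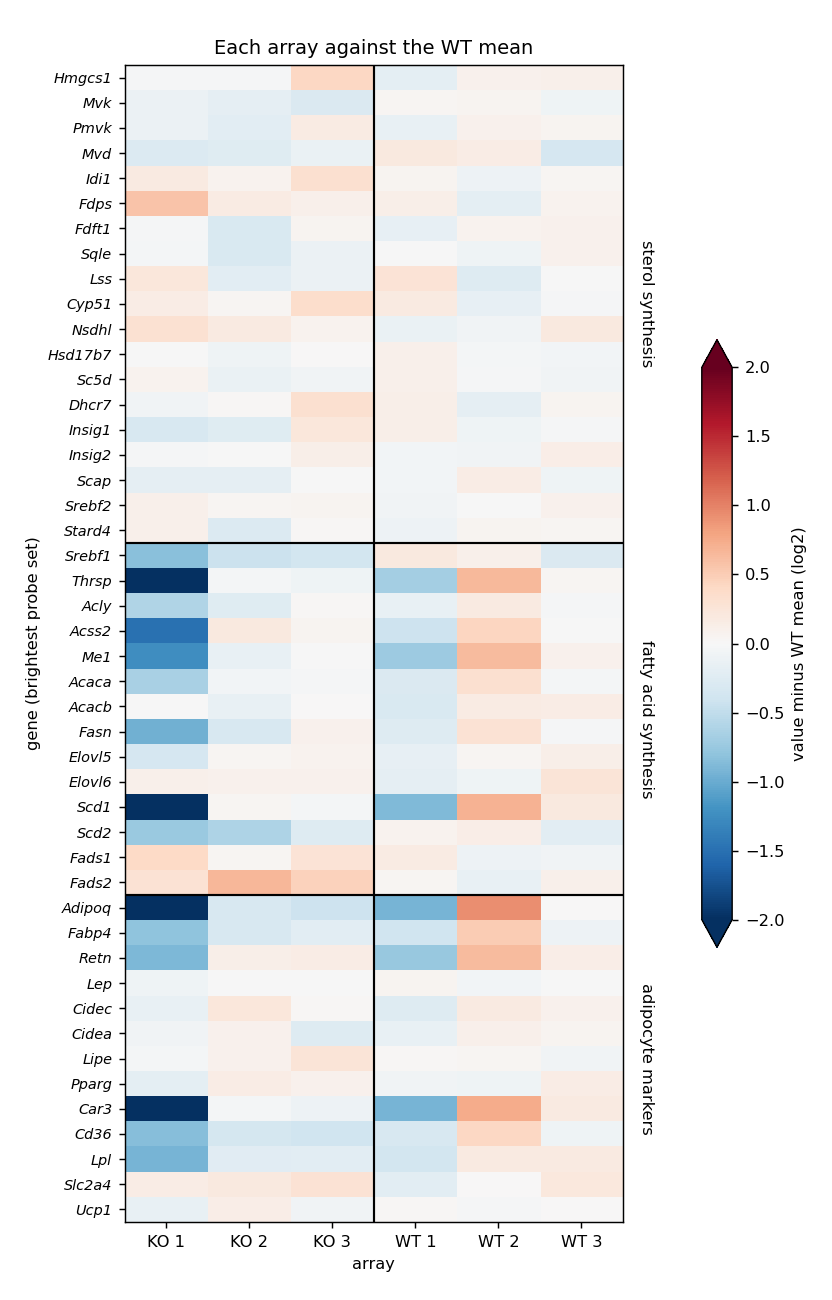
Each array (columns) as the difference from the WT mean on the log2 scale (colour, cut off at -2 and 2) for the 33 genes and 13 fat cell markers (rows). KO replicate 1 is dark blue for Thrsp, Scd1, Acss2 and Me1 as for Adipoq and Car3, WT replicate 1 is paler blue in the same rows, and the sterol rows show no such column.

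The genes that supply acetyl-CoA and NADPH were all lowest in KO replicate 1. Acly, which splits citrate into acetyl-CoA, measured 7.99, 8.35 and 8.62 in KO and 8.44, 8.77 and 8.57 in WT. The groups overlapped, KO replicate 1 was lowest, and the difference of -0.27 ± 0.15 (SE, adjusted p of 0.679) was -0.11 without it. Acss2, which makes acetyl-CoA from acetate, measured 3.38 in KO replicate 1 and 4.45 to 5.29 elsewhere, and its difference of -0.41 became 0.12 without that array and was 0.09 at a dimmer probe set. Me1, malic enzyme, measured 5.11 there and 5.62 to 6.99 elsewhere, and its difference of -0.46 became -0.08. None of the 3 passed. Of the 5 other Acly probe sets 1, a dim one, had the other sign (0.0062).

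Of the chain-building enzymes 2 of 3, Acaca and Fasn, were lowest in KO replicate 1. Acaca, the cytosolic acetyl-CoA carboxylase that commits carbon to fatty acids, measured 5.16, 5.76 and 5.80 in KO and 5.53, 6.14 and 5.77 in WT. Fasn, fatty acid synthase, measured 6.42, 7.07 and 7.47 in KO and 7.12, 7.68 and 7.35 in WT. In both genes the groups overlapped. Their differences of -0.24 ± 0.19 and -0.40 ± 0.24 (SE, adjusted p of 0.776 and 0.689) were -0.03 and -0.12 without it. Acacb, the mitochondrial carboxylase that restrains fatty acid oxidation, differed by -0.05 at its brightest probe set, which was lowest in WT replicate 1. A second Acacb probe set, near the array medians, lay at 2.83 to 3.01 in KO and 2.43 to 2.65 in WT (unadjusted p of 0.00317, adjusted p of 0.305).

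Among the regulators, Thrsp, a lipogenic protein of liver and fat, measured 3.16, 6.39 and 6.36 in KO and 5.75, 7.09 and 6.48 in WT. Without KO replicate 1, which was near the array medians, its difference of -1.13 became -0.06, and its dimmer probe sets differed by -0.17 and 0.19. Srebf1 measured 6.72, 7.13 and 7.19 in KO and 7.75, 7.66 and 7.26 in WT. All 3 KO values were below all 3 WT values, although KO replicate 3 and WT replicate 3 were close. This was a 1.46-fold lower level (95% interval 1.14 to 1.86, adjusted p of 0.375), and without KO replicate 1 the difference was -0.40 in place of -0.54 on the log2 scale. Among arrays of high Xist (2 KO, 1 WT) Srebf1 differed by -0.10 and among those of low Xist (1 KO, 2 WT) by -0.98. It is the single probe set of the gene here, and its suffix marks possible binding to several transcripts.

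**Figure D3:**
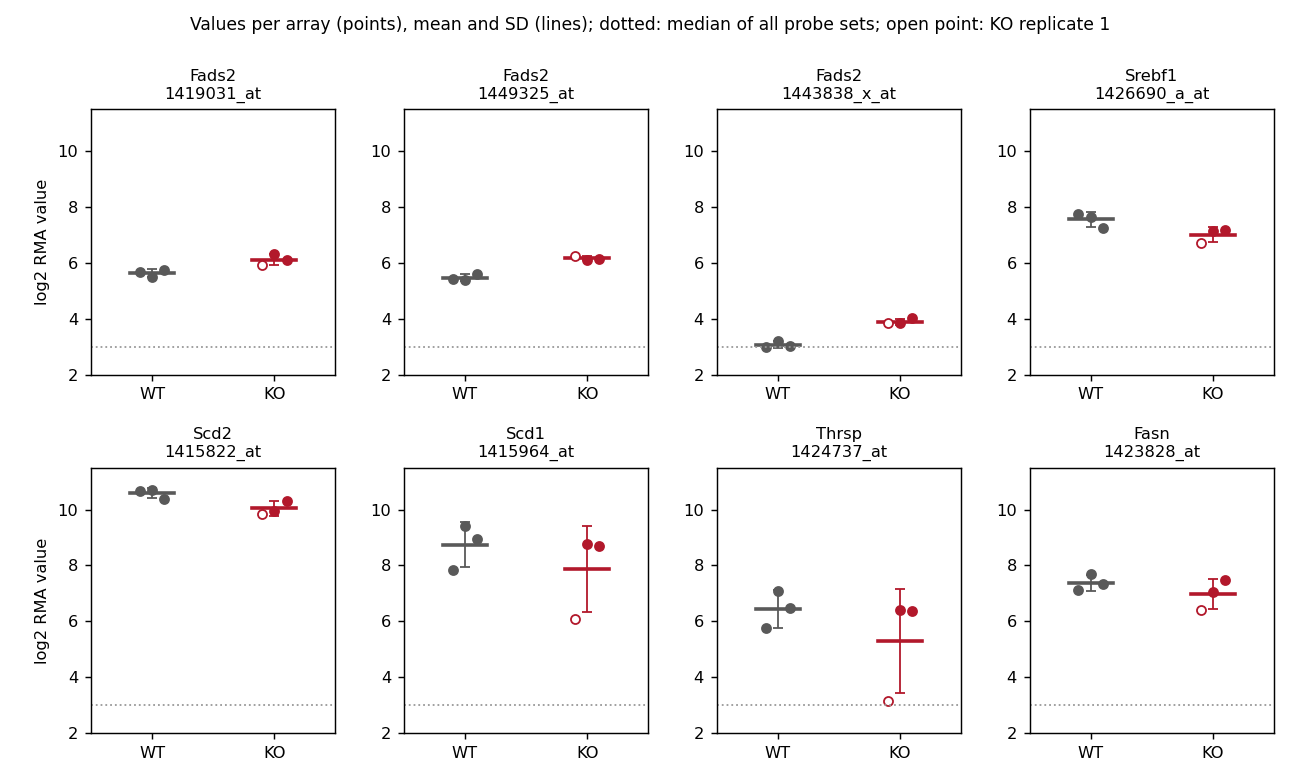
Log2 values per array (y axis) by genotype (x axis) for the 3 probe sets of Fads2 and the brightest probe sets of Srebf1, Scd2, Scd1, Thrsp and Fasn, with means and SD (n = 3 each); the open point is KO replicate 1 and the dotted line the median of all probe sets. The Fads2 groups are apart at all 3 probe sets, and in Scd1 and Thrsp KO replicate 1 lies far below the other 5 arrays.

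The stearoyl-CoA desaturases, which make monounsaturated fatty acids, differed from each other in this respect. Scd1, the form typical of liver and fat, measured 6.08, 8.79 and 8.70 in KO and 7.86, 9.43 and 8.94 in WT. KO replicate 1 was lowest by a wide margin, WT replicate 1 next, and the groups overlapped. Its difference of -0.88 ± 0.65 (adjusted p of 0.755) was 0.0038 without KO replicate 1 and -0.19 at a dimmer probe set. Scd2, the more widely expressed form, measured 9.84, 9.96 and 10.32 in KO and 10.66, 10.71 and 10.38 in WT. All KO values lay below all WT values, with KO replicate 3 and WT replicate 3 close. This was a 1.46-fold lower level (95% interval 1.17 to 1.82, adjusted p of 0.312), and the difference was -0.54 with all arrays and -0.44 without KO replicate 1. The other Scd2 probe sets also had KO below WT in every array, by -0.36 (adjusted p of 0.352) and, near the array medians, by -0.16. By Xist level the brightest set differed by -0.24 (high) and -0.85 (low).

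Fads2, which adds the first new double bond to the essential fatty acids on the way to arachidonic and docosahexaenoic acid, had 3 probe sets, all higher in KO. At 1449325_at it measured 6.24, 6.10 and 6.15 in KO and 5.42, 5.39 and 5.61 in WT. All KO arrays were high with little spread, and the level rose 1.62-fold (95% interval 1.39 to 1.88, adjusted p of 0.0404 by limma). At 1443838_x_at it measured 3.84, 3.83 and 4.02 in KO and 2.98, 3.21 and 3.02 in WT. The increase was 0.83 ± 0.10 on the log2 scale (adjusted p of 0.0236 by limma), larger than at the brighter probe sets. The WT values were at the array medians, where a difference may be misjudged in size. The suffix of that probe set marks possible binding of other transcripts. At the brightest probe set, 1419031_at, it measured 5.93, 6.31 and 6.11 in KO and 5.68, 5.49 and 5.74 in WT. There the groups did not overlap either, but the 1.39-fold difference (1.16 to 1.67) did not pass (adjusted p of 0.276).

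The Fads2 difference kept its direction with each array left out, but most of these fits lost the call. With each array left out in turn, the difference at 1449325_at ran from 0.65 to 0.76 and passed without WT replicate 3 (adjusted p of 0.0492). It did not pass without KO replicate 1, 2 or 3 (0.149, 0.142 and 0.137) or without WT replicate 1 or 2 (0.163 and 0.259). At 1443838_x_at the difference ran from 0.76 to 0.90, with an adjusted p of 0.077, 0.101 and 0.0918 without KO replicates 1, 2 and 3 and 0.115, 0.0706 and 0.0787 without WT replicates 1, 2 and 3. Fits with fewer arrays have fewer degrees of freedom. With all 6 arrays and Xist as a covariate the call was also lost, at 0.68 (adjusted p of 0.143) for 1449325_at and 0.82 (0.0886) for 1443838_x_at. Among arrays of high Xist the 3 probe sets, from brightest to dimmest, differed by 0.47, 0.52 and 0.90, and among those of low Xist by 0.35, 0.84 and 0.74. KO replicate 1, like the other KO arrays, lay above every WT array at each Fads2 probe set. The part of fat cells in the Fads2 difference was not tested.

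**Figure D4:**
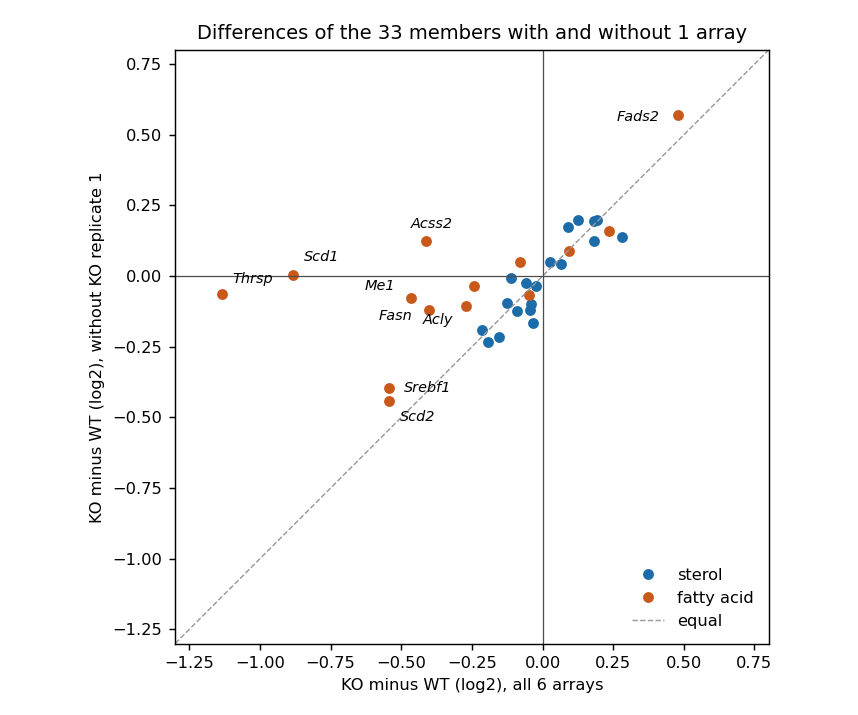
KO minus WT difference on the log2 scale with all 6 arrays (x axis) against the same without KO replicate 1 (y axis), 1 point per gene at its brightest probe set, with a dashed line where both are equal. Thrsp, Scd1, Me1, Acss2 and Fasn move to near 0 on the y axis, whereas Fads2 (0.48 and 0.57), Srebf1 (-0.54 and -0.40) and Scd2 (-0.54 and -0.44) keep their sign. The sterol genes lie between -0.22 and 0.28 on the x axis and between -0.23 and 0.20 on the y axis.

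Fads1, the delta-5 desaturase that acts after Fads2, measured 7.20, 6.85 and 7.09 in KO and 6.98, 6.71 and 6.75 in WT. The groups overlapped, and the difference was 0.24 ± 0.12 (95% interval -0.03 to 0.50, adjusted p of 0.623). Fads3, of the same family and no member of the list, differed by 0.43 ± 0.14 (unadjusted p of 0.0122, adjusted p of 0.421) with overlapping groups. In the order of genes on the chromosome, Fads3, Fads2 and Fads1 are neighbours, with only Gm29917 and Gm50359 listed between them. The elongases Elovl5 and Elovl6, which lengthen polyunsaturated and saturated chains respectively, differed by -0.08 and 0.10 and their groups overlapped, and a dimmer Elovl5 probe set differed by 0.11.

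Other genes of both pathways were read from a list made whatever their values. Of 22 further sterol genes 15 were measured, 12 lower and 3 higher in KO, and of 31 further fatty acid genes 28 were measured, 14 lower and 14 higher. By limma 0 of these 43 passed, and 11 had an unadjusted p under 0.05, in a background of 10.1%. In the sterol list these were Abca1, which exports cholesterol from cells, at -0.46 ± 0.14 (adjusted p of 0.389), Abcg1, which exports it to lipoproteins, at -0.33 ± 0.11 (0.426), and Npc1, the lysosomal cholesterol transporter, at -0.29 ± 0.09 (0.395). In all 3 every KO value lay below every WT value (7.56% of all genes). The margin was narrow for Abca1, with KO replicate 2 at 6.226 and WT replicate 1 at 6.229. It was also narrow for Abcg1, with KO replicate 2 at 5.18 and WT replicate 3 at 5.20. Without KO replicate 1 Abca1, Abcg1 and Npc1 differed by -0.39, -0.29 and -0.28. Abcg8, another sterol exporter, came next, at -0.18 ± 0.10 (0.681). Msmo1, Ebp and Lbr, enzymes between lanosterol and cholesterol, differed by -0.09, -0.08 and 0.01.

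In the fatty acid list 4 genes higher and 4 lower in KO had an unadjusted p under 0.05. Besides Fads3, the smallest p belonged to Lpin1, a phosphatidate phosphatase of triglyceride synthesis, at -0.35 ± 0.10 (adjusted p of 0.389). Elovl1, an elongase of very long saturated chains, differed by 0.35 ± 0.12 (0.455). Dgat2, the last step of triglyceride synthesis, differed by -0.79 ± 0.29 (0.495), with 3.67 in KO replicate 1 and at least 4.65 elsewhere, and by -0.42 without that array. Hacd1, a dehydratase of fatty acid elongation, and Acsl4, which activates arachidonic acid, were higher in KO without overlap, by 0.28 ± 0.11 (0.512) and 0.22 ± 0.09 (0.512). Hsd17b12, a reductase of elongation, differed by -0.38 ± 0.16 (0.557) with overlap. Mid1ip1, a partner of acetyl-CoA carboxylase related to Thrsp, differed by -0.43 ± 0.18 (0.538), also with overlap, and by -0.21 without KO replicate 1. Gpam and Mlxipl, an acyltransferase and the carbohydrate-responsive lipogenic factor, differed by 0.03 and 0.05.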

How the data were processed

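RNA of whole pancreas was measured on 6 Affymetrix arrays, 3 KO and 3 WT, grouped by the sample titles. The authors' deposited log2 values come from RMA (affy), as the submitters' processing notes name it, with no settings stated in the labels. RMA subtracts background, equalises the distributions of the arrays and summarises the probes of each set. No scanner files were used here. Detection calls are therefore lacking, and the number of arrays limits the precision.

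Control probe sets (64) were left out, which left 45037. Of all 45101 probe sets 34958 had 1 symbol, 932 had several and 9211 had none, and none was named from a set with several. Symbols were updated by Entrez identifier through a RefSeq table of GRCm38.p6. A gene was represented by its brightest probe set. Where probe sets of a gene differed in sign or by over 0.5, both are given for the genes described in full.

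Differences were tested with lmFit and eBayes of limma 3.58.1 (R 4.3.3) over all probe sets, KO minus WT, two-sided, without covariates, with Benjamini-Hochberg adjustment and a threshold of 0.05. Intervals are 95% with 9.53 degrees of freedom. The fit was tested on simulated data. Biological replicates are taken from the titles, and nothing more says how they were obtained. The p-values therefore weigh a difference against the variation between these samples, moderated over all probe sets. The members and lists were chosen with earlier results of these data known. Values per array were printed for members past the threshold at any probe set, with an unadjusted p under 0.05 or without overlap, and for Hmgcs1, Sqle, Insig1, Srebf2, Srebf1, Acly, Acaca, Fasn, Scd1 and Fads2. Of the other pathway genes, up to 4 of smallest p per list were named, and Adipoq and Fabp4 of the markers. Other genes printed with values per array (Thrsp, Acss2, Me1, Fads1, Fdps) and the other pathway and marker genes named were added after their values were seen. Promoters came from RefSeq. Alternatives were other normalizations, filters, variance models, array weights, a replicate block, single arrays left out, an Xist covariate, other probe set choices and an adjusted p under 0.1. Figures were drawn with matplotlib 3.10.9.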

Additional observations from a re-analysis of the deposited data

How the results depend on the processing

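The 44 probe sets past the threshold became 16 to 41 with 1 array left out, 33 with the replicate block, 22 with the Xist covariate, 25 without probe sets whose suffix marks several transcripts and 76 at an adjusted p under 0.1. Of the 2 member probe sets past the threshold, 0 to 1 passed with 1 array left out. With the replicate block 0 passed (adjusted p of 0.0557 and 0.1001 by limma), and with the Xist covariate 0. Without dim probe sets 1 passed, and without the suffix-marked sets 1. Each of these filters removes 1443838_x_at from the test. Both member probe sets passed in the other alternatives. Same-numbered KO and WT arrays deviated from their group means with correlations of 0.188, -0.0308 and -0.0815. These values, over all probe sets, cannot settle whether the numbers pair the arrays. For the fatty acid genes, replicate 1 had the lowest mean deviation in both genotypes (-0.86 in KO, -0.26 in WT).

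The sterol median of -0.03 ran from -0.0287 to 0.0462 with 1 array left out, was 0.0428 without the suffix-marked sets, and lay between -0.0543 and 0.0462, on both sides of 0, in all alternatives run. The fatty acid median of -0.34 ran from -0.52 to -0.05 with 1 array left out and was -0.18 when all probe sets per gene were averaged. With 1 array left out Hmgcs1 ran from -0.0214 (without KO replicate 3) to 0.1997 and Scd1 from -1.3474 to 0.0038 (without KO replicate 1), and the cause was not tested. Acaca, Acly, Fads2, Fasn, Idi1, Insig1, Mvk, Scd2, Sqle, Srebf1 and Srebf2 kept their sign in the alternatives run. No pathway gene passed in any alternative. The adjusted p over all alternatives was 0.197 to 0.695 for Srebf1, 0.171 to 0.665 for Scd2 and 0.16 to 0.628 for the brightest Fads2 probe set.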

Other observations

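The duct transcription factor Sox9 measured 5.80 to 6.42 in KO and 5.39 to 5.78 in WT (unadjusted p of 0.00874, adjusted p of 0.389 by limma). The other duct markers were split, with Krt19 at -0.26, Krt7 at 0.24 and Cftr, below the array medians, at 0.02, and their groups overlapped. Ttr, the thyroid hormone carrier transthyretin, made by liver and by islets, measured 10.48, 9.87 and 10.23 in KO and 11.03, 11.01 and 10.90 in WT (adjusted p of 0.142), so every KO value lay below every WT value without passing the threshold.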
